A study of Oryza sativa Japonica Group with 14 samples.

Results

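The starts of rice chromosomes 11 and 12, here their first 2 Mb, are known as copies of a shared ancestral segment. The peaks described here are those on Chr11 and Chr12 whose end lies at or below position 2000000, taken from 8 deposited peak lists. They number 1898 of the 130467 peaks in all lists. The position alone chose them, and no measured value was used. Positions follow the authors' coordinates. The sources used here do not name the assembly behind them, so peaks were not assigned to genes and no sequence is shown.

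The ChIP-seq libraries came from growing points dissected by hand from rice of the DongJin background, grown in the field. The inflorescence meristem (IM), which forms the panicle, was taken at the 10 to 12 leaf stage at a size of 1 to 2 mm from plants of 3 genotypes. These were SDG711 RNAi lines, a T-DNA insertion line of JMJ703 (jmj703) and wild type (WT). The shoot apical meristem (SAM), which forms leaves, was under 0.5 mm and came from WT plants only, at the 6 to 7 leaf stage. SDG711 RNAi apices were harvested on days 17 to 19 of June, and jmj703 and WT IM apices on days 21 to 24. How many RNAi lines were pooled is not given in the labels, and the remaining silenced or mutant transcript was not analysed here. About 400 plants were used to collect the apices. There was 1 library for each mark in each of these groups, so nothing was tested and every difference below lies between single libraries.

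H3K4me3 is a histone methylation of active gene starts. H3K27me3 is the repressive methylation made by Polycomb complexes, often over developmental genes. SDG711 is a Polycomb-group H3K27 methyltransferase of rice and JMJ703 is an H3K4 demethylase. When a segment is duplicated, each copy starts with the same genes in the same order, and copies then drift apart by insertions, deletions and base changes. The ends of rice chromosomes 11 and 12 are the youngest large duplication known in this genome, and exchange between the copies has kept parts of them nearly identical.

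That likeness limits every comparison of the copies. The tags were 45 bp long, and a tag from a stretch that is identical in both copies could be placed on either. The sources used here do not say how such tags were treated. Where the copies have equal values, equal marking and shared placement of tags cannot be told apart, and where a copy has no peak, discarded or misplaced tags were not tested.

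Depth ran from 4869161 tags in the jmj703 IM H3K4me3 library to 22887617 in the WT IM H3K27me3 library. For H3K4me3 the other totals were 17941001 in SDG711 RNAi IM, 18452560 in WT IM and 13703302 in WT SAM. For H3K27me3 they were 10502005 in SDG711 RNAi IM, 14337383 in jmj703 IM and 16321456 in WT SAM. The share of tags in H3K4me3 peaks was 41.1% in SDG711 RNAi IM, 37.7% in jmj703 IM, 38.7% in WT IM and 24.4% in WT SAM. Values below are tags in a peak, or tags in a peak per 1000000 tags of the library, and the second is not corrected for this difference in enrichment.

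At the authors' threshold, a p of at most 1e-05, the ends held nearly the same number of H3K4me3 peaks in all 4 libraries and on both copies. There were 342 in SDG711 RNAi IM, 330 in jmj703 IM, 336 in WT IM and 344 in WT SAM. On Chr11 they numbered 167, 162, 164 and 169 in that order of libraries, and on Chr12 175, 168, 172 and 175. Chr12 thus had 6 to 8 more peaks than Chr11 in each library. With only peaks at p of at most 1e-10 kept, the libraries were less alike, with 308 in SDG711 RNAi IM, 263 in jmj703 IM, 305 in WT IM and 237 in WT SAM.

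H3K27me3 peaks numbered 100 in SDG711 RNAi IM, 150 in jmj703 IM, 145 in WT IM and 151 in WT SAM. The SDG711 RNAi IM library had the fewest tags of the 4, and its lower count was not corrected for that. Chr11 held 46, 70, 69 and 75 of these peaks in that order, and Chr12 held 54, 80, 76 and 76. At p of at most 1e-10 the counts were 70 in SDG711 RNAi IM, 90 in jmj703 IM, 95 in WT IM and 96 in WT SAM, so SDG711 RNAi IM still had the fewest, by a narrower gap.

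Against the first 2 Mb of the other 10 chromosomes, the ends lay inside the range for both marks, and in its upper part for H3K4me3. H3K4me3 density in WT IM was 84 peaks per Mb in the ends, against a median of 73.3 and a range of 34 to 98.5 in the other starts. The ratio to the median was 1.17 in SDG711 RNAi IM, 1.24 in jmj703 IM, 1.15 in WT IM and 1.17 in WT SAM. For H3K27me3 the ratios were 0.926, 1.21, 1.07 and 0.932 in the same order. The side of 1 depended on the choices made, since the SDG711 RNAi IM ratio was 1.19 at p of at most 1e-10 and the WT IM ratio was 0.914 over the first 1 Mb. H3K4me3 peaks covered 15.1% of Chr11 and 14.9% of Chr12 in WT IM and 12.6% and 12.5% in WT SAM. H3K27me3 peaks covered 7.85% of Chr11 and 8.58% of Chr12 in WT IM, and 7.39% and 7.21% in WT SAM.

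**Figure D1:**
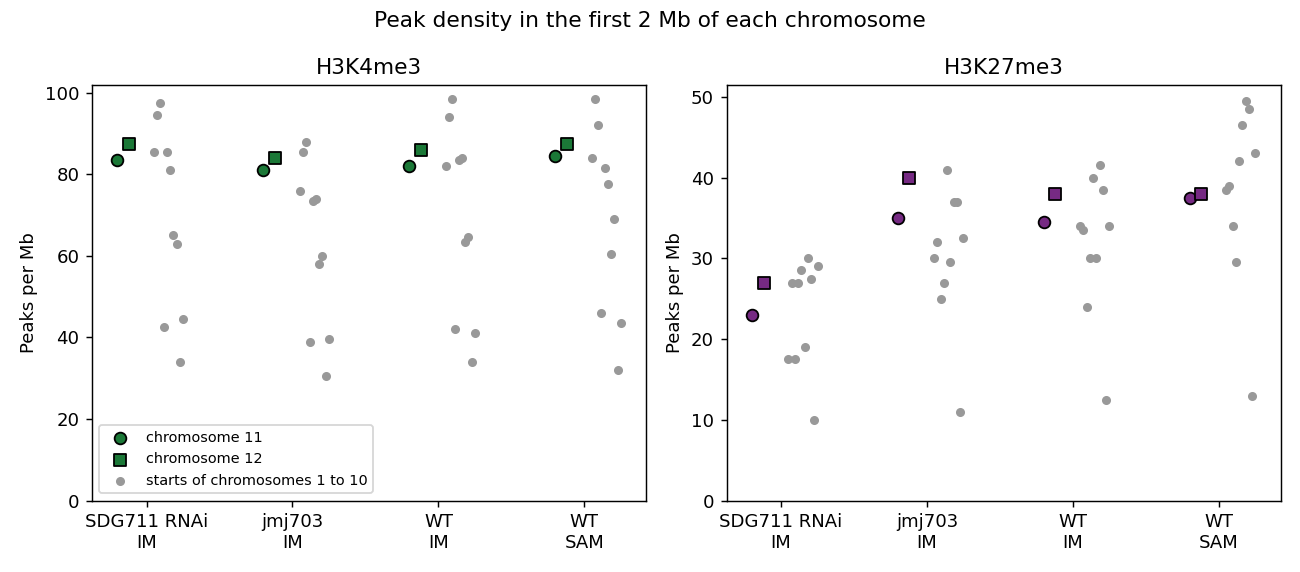
Peaks per Mb (vertical axis) in the first 2 Mb of each chromosome, by library, for H3K4me3 (left) and H3K27me3 (right). Coloured circles and squares are chromosomes 11 and 12, and grey points are chromosomes 1 to 10. Chromosomes 11 and 12 lie inside the range of the other starts in every library.

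The median H3K4me3 peak was longest in SDG711 RNAi IM and WT IM, the deepest H3K4me3 libraries. On Chr11 it was 1731 bp in SDG711 RNAi IM, 1293 bp in jmj703 IM, 1631 bp in WT IM and 1363 bp in WT SAM. On Chr12 it was 1674, 1285, 1587 and 1335 bp in that order, so the copies were close in each library. Tags in H3K4me3 peaks per 1000000 library tags were 3266, 3177, 3080 and 1888 on Chr11 and 3290, 3313, 3072 and 1864 on Chr12. The lower value of WT SAM was shared by both copies and went with the lower share of tags in peaks of that library.

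The limit of 2 Mb left the following peaks just inside and just outside. In WT IM the last H3K4me3 peak inside it on Chr11 lay from 1989084 to 1990818 with 475 tags, and the first beyond it from 2003592 to 2004981 with 158 tags. On Chr12 the last lay from 1969349 to 1970986 with 335 tags, and the next from 2010432 to 2012080 with 356 tags.

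At the very tips, up to 124786 on Chr11 and 120548 on Chr12, most peaks had a counterpart on the other copy. The region next to the tip carried H3K4me3 from 1790 to 6410 on Chr11 and from 1346 to 4351 on Chr12 over the 4 libraries. In WT IM its peaks held 678 tags on Chr11 and 509 on Chr12. The first H3K27me3 domain followed directly, from 6929 to 12540 on Chr11 and from 5225 to 11038 on Chr12, and was listed in all 4 libraries on both copies. It held 502, 570, 705 and 815 tags on Chr11 in SDG711 RNAi IM, jmj703 IM, WT IM and WT SAM. On Chr12 it held 481, 588, 783 and 815 tags in that order. The deposited folds were 4.41, 3.43, 3.32 and 3.57 on Chr11 and 4.51, 3.52, 3.74 and 3.62 on Chr12. A fold is the height of a peak over the local background of its library. The copies had equal tags in WT SAM and differed most in WT IM.

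The next H3K4me3 region, from 14340 to 16128 on Chr11 and from 12725 to 14513 on Chr12, was weak. It held 91, 84, 93 and 67 tags on Chr11 in SDG711 RNAi IM, jmj703 IM, WT IM and WT SAM. On Chr12 it held 118, 72 and 102 tags in the IM libraries in that order and had no peak in WT SAM. In jmj703 IM the peak was 1789 bp long on both copies, and in WT IM it was 1090 bp long on both copies.

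The second H3K27me3 domain of the tips overlapped H3K4me3 in jmj703 IM and WT SAM, on both copies. It lay from 26068 to 29090 on Chr11 and from 24391 to 27468 on Chr12. Its H3K27me3 peaks held 200 tags in jmj703 IM, 376 in WT IM and 246 in WT SAM on Chr11, with no peak in SDG711 RNAi IM. On Chr12 they held 81 tags in SDG711 RNAi IM, 314 in jmj703 IM, 373 in WT IM and 247 in WT SAM. The Chr12 peak of SDG711 RNAi IM covered 1230 bp, against 3003 bp in WT IM. The H3K4me3 peaks held 21 tags in jmj703 IM and 118 in WT SAM on Chr11, and 33 and 120 on Chr12. Neither SDG711 RNAi IM nor WT IM had an H3K4me3 peak there on either copy.

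A short, sharp H3K4me3 region followed, with 153, 50, 139 and 49 tags on Chr11 in SDG711 RNAi IM, jmj703 IM, WT IM and WT SAM, and 174, 52, 122 and 59 tags on Chr12. The folds ran from 6.15 in WT SAM to 13.1 in jmj703 IM on Chr11, and it was listed in all 4 libraries on both copies.

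The next H3K27me3 domain was listed in the IM libraries and not in WT SAM, on both copies. It lay from 45464 to 47168 on Chr11 and from 43720 to 45450 on Chr12. On Chr11 it held 96 tags in SDG711 RNAi IM, 123 in jmj703 IM and 210 in WT IM. On Chr12 it held 97, 156 and 186 tags in that order. Per 1000000 library tags these were 9.14, 8.58 and 9.18 on Chr11 and 9.24, 10.9 and 8.13 on Chr12, which are close to each other in all 3 genotypes.

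The opposite pattern followed. A pair of neighbouring domains was listed in WT SAM and in no IM library, again on both copies. The first lay from 61564 to 64455 on Chr11 with 558 tags, and from 57599 to 60477 on Chr12 with 478 tags. The second lay from 66935 to 70190 on Chr11 with 458 tags and a fold of 4.2, and from 62984 to 65808 on Chr12 with 426 tags and a fold of 4.15. Inside the second, WT SAM alone also had an H3K4me3 peak, of 87 tags on Chr11 and 80 tags on Chr12. Neither mark was listed at this second site in SDG711 RNAi IM, jmj703 IM or WT IM.

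Of the 6 H3K27me3 domains of the Chr11 tip, all 6 had a partner on Chr12, and 4 of the 6 had the same presence in all 4 libraries. Chr12 had 8 domains, of which 2 had no partner. These were from 77272 to 78305, with 75 tags in SDG711 RNAi IM only, and from 96738 to 97958, with 90 tags in jmj703 IM only. The remaining paired domain, from 122437 to 123848 on Chr11 and from 118554 to 119898 on Chr12, held 101 tags in jmj703 IM on Chr11. On Chr12 it held 49 tags in jmj703 IM and 132 tags in WT IM. Just beyond the tip, Chr11 carried H3K27me3 that began at 127219 in jmj703 IM with 182 tags, at 127381 in WT IM with 220 tags and at 127389 in WT SAM with 203 tags. At the spacing of the tip it had no partner, since Chr12 had no peak of either mark between 120548 and 125523, the matching stretch. A partner at another spacing was not sought. The limit of the tip was set by the run of H3K4me3 regions described below, after the peaks were seen.

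**Figure D2:**
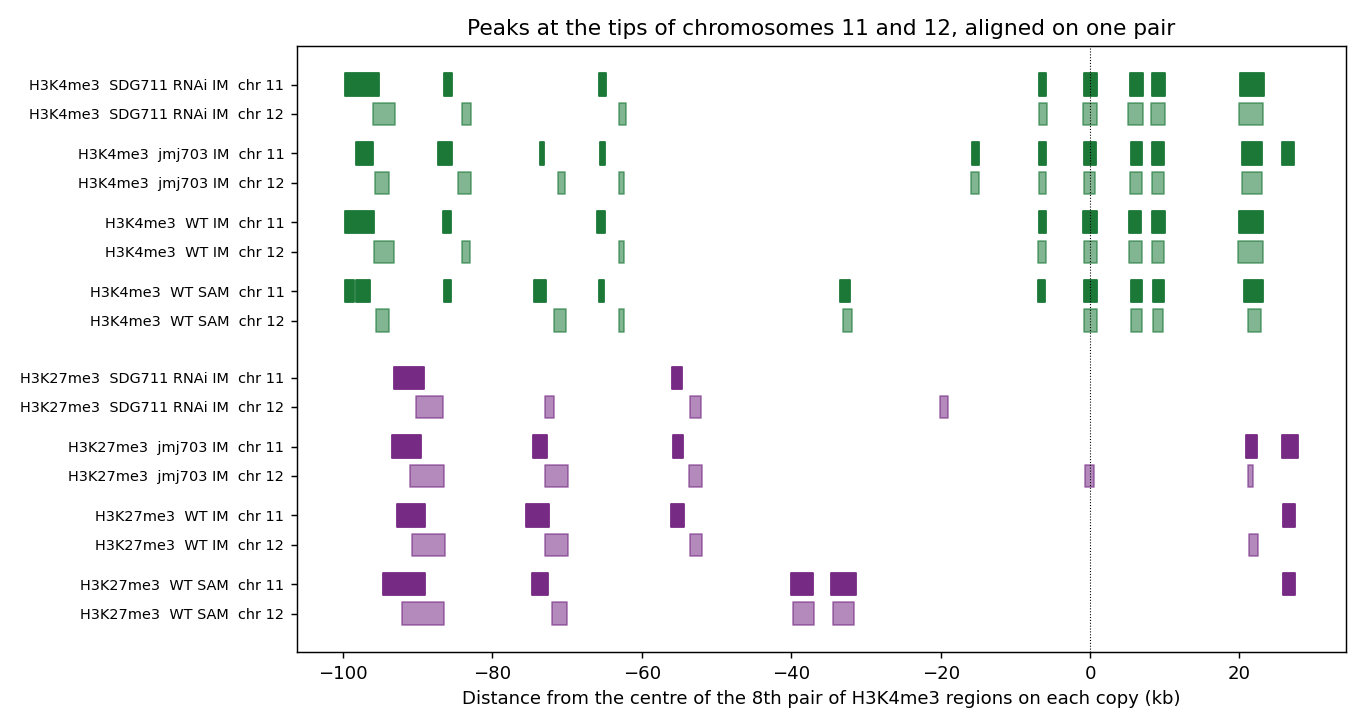
Peaks of the tips of chromosomes 11 (dark) and 12 (pale) by mark, tissue and genotype. The horizontal axis is the distance in kb from the centre of the 8th pair of H3K4me3 regions, set to 0 on each copy, and each bar is a deposited peak. In the right part the H3K4me3 bars of the copies lie under each other, and in the left part the bars of chromosome 12 are shifted to the right for both marks.

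From the last of these WT SAM domains onward, the tips carried a run of 7 H3K4me3 regions in the same order and at nearly the same spacing. It extended from 68140 to 124786 on Chr11 and from 64330 to 120548 on Chr12. The centres of its first and last regions were 54414.5 bp apart on Chr11 and 53987 bp apart on Chr12. The position on Chr12 minus that on Chr11 stayed between -4298 and -3870.5 bp. The strongest region of the run, from 121564 to 124786 on Chr11 and from 117206 to 120548 on Chr12, held 730, 206, 753 and 332 tags on Chr11 in SDG711 RNAi IM, jmj703 IM, WT IM and WT SAM. On Chr12 it held 792, 205, 826 and 252 tags. The copies stood close in the 3 IM libraries and less so in WT SAM.

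The region from 100581 to 102545 on Chr11 and from 96407 to 98341 on Chr12 was as evenly marked. It held 532, 197, 541 and 219 tags on Chr11 in SDG711 RNAi IM, jmj703 IM, WT IM and WT SAM, and 528, 183, 547 and 229 tags on Chr12. A small region of the run was listed in jmj703 IM only, again on both copies. It lay from 85830 to 86713 on Chr11 with 34 tags and from 81482 to 82537 on Chr12 with 48 tags, at folds of 6.30 and 6.25. Another region, from 94564 to 95629 on Chr11, was listed in all 4 libraries, with 186, 44, 180 and 75 tags in the usual order. Its partner from 90467 to 91548 on Chr12 held 205, 34 and 166 tags in the IM libraries and had no peak in WT SAM.

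To follow the copies over the whole 2 Mb, overlapping H3K4me3 peaks of the 4 libraries were merged into 189 regions on Chr11 and 207 on Chr12. They were joined into a chain of pairs in the same order, from their position and length alone. A step between neighbouring pairs could differ in length between the copies by up to 2 kb, and larger jumps were allowed at a cost. The chain held 112 pairs, which are 59.3% of the Chr11 regions and 54.1% of the Chr12 regions. In 99 of its 111 steps the spacing differed by at most 2 kb, and the median difference was 517 bp.

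**Figure D3:**
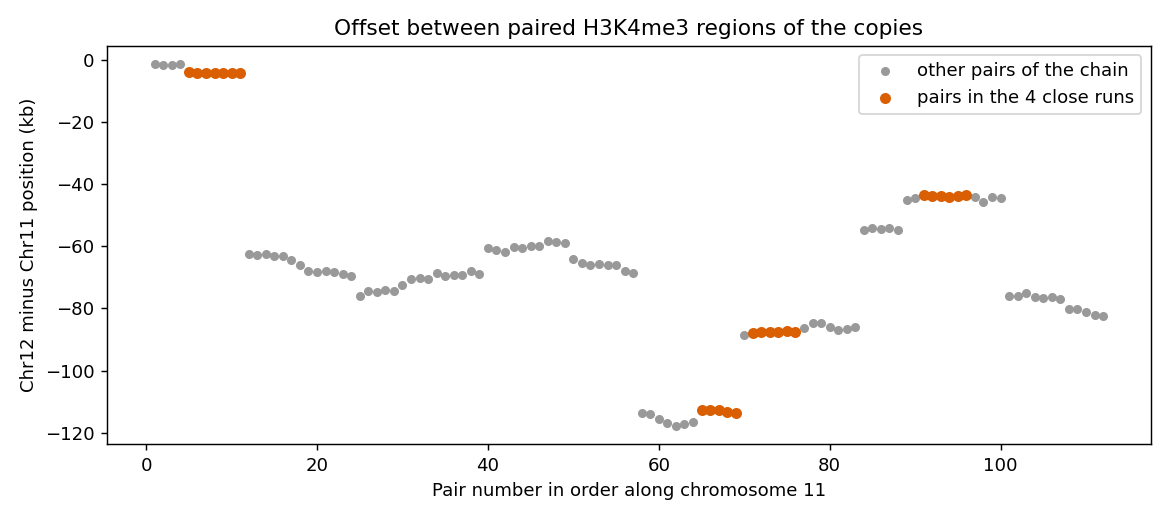
Position on chromosome 12 minus position on chromosome 11 (kb, vertical axis) for the 112 paired H3K4me3 regions, in order along chromosome 11. Grey points are pairs of the chain and orange points the 24 pairs in the 4 close runs. The offset starts near 0, then lies in flat stretches that are joined by jumps, down to -117896 bp.

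The chain by itself does not show the duplication. The same procedure gave 64 pairs between Chr11 and Chr12 from 2 to 4 Mb and 13 between the starts of Chr11 and Chr10. Between the starts of Chr2 and Chr3, with 214 and 213 regions, it gave 113 pairs, with a median step difference of 739 bp. In windows of 200 kb, the offset with the largest overlap of H3K4me3 lay within 5 kb of a chain pair in 4 of 10 windows. Pairs of the chain were therefore read as candidates only.

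With closer spacing, more pairs were found between the copies than between other segments. A close run was 5 or more pairs in a row with spacing within 500 bp and like lengths, passing over at most 1 region, a rule chosen after the peaks were seen. The duplicated ends held 4 such runs with 24 pairs, all of them also in the chain. There was none between Chr11 and Chr12 from 2 to 4 Mb. Of the 65 other pairs of chromosome starts, 5 had 1 run each and none had 2, and the largest had 6 pairs, between Chr3 and Chr12. Single runs of 5 or 6 thus also arose outside the duplication. Some starts had fewer regions and so fewer places for a run, such as Chr10 with 106 against 189 on Chr11. Chr2 and Chr3, with 214 and 213 regions, had no run between them.

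The other 3 close runs lay deeper in the segment. One extended from 1324205 to 1370058 on Chr11 and from 1211445 to 1256399 on Chr12, with 5 pairs. The next, with 6 pairs, extended from 1392438 to 1427297 on Chr11 and from 1304619 to 1339826 on Chr12. The last, with 6 pairs, extended from 1689591 to 1716155 on Chr11 and from 1645989 to 1672907 on Chr12. The offset of Chr12 against Chr11 was -113538.5 to -112737.5 bp, -87800 to -87183 bp and -44178 to -43384.5 bp in these runs. H3K27me3 was rare in all 3. A site on Chr12 from 1223771 to 1225384 carried it in 1 library and a site on Chr11 from 1421981 to 1423142 in 2 libraries.

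Some H3K4me3 regions of these runs were absent from the same libraries on both copies. Regions beginning at 1404117 and 1412745 on Chr11 and at 1316908 and 1325341 on Chr12 were listed in the 3 IM libraries and not in WT SAM. The second held 442, 77 and 429 tags on Chr11 in SDG711 RNAi IM, jmj703 IM and WT IM, and 471, 49 and 381 tags on Chr12. Others differed between the copies, such as the region from 1396974 on Chr11, listed with 111 tags in SDG711 RNAi IM, 121 in WT IM and 91 in WT SAM. Its partner from 1309429 on Chr12 was listed only in WT SAM, with 100 tags.

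H3K27me3 on both copies was found at the long region from 1702199 to 1705847 on Chr11 and from 1658015 to 1661675 on Chr12. Its H3K4me3 peaks held 646, 146, 725 and 176 tags on Chr11 in SDG711 RNAi IM, jmj703 IM, WT IM and WT SAM, and 501, 204, 601 and 148 tags on Chr12. H3K27me3 held 100 tags in jmj703 IM, 114 in WT IM and 190 in WT SAM on Chr11. On Chr12 it held 71, 96 and 187 tags in that order. SDG711 RNAi IM had no H3K27me3 peak there on either copy.

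Presence of H3K27me3, which the pairing did not use, was compared between the copies. Each H3K27me3 peak of Chr11 was moved by the offset of the nearest pair, and a peak of the same library was sought at that place on Chr12. Summed over the 4 libraries, which share many of their sites, 16 of 18 peaks within the close runs and the tip had such a partner (88.9%). The tip was counted from the chromosome end, and most of the 18 peaks lay there, before the first close run. The limits of these stretches were set after the peaks were seen, so the share depends on where they were drawn. The Chr11 peaks just beyond the tip, which had no partner at the spacing of the tip, were counted as elsewhere. Elsewhere in the ends 59 of 242 had one (24.4%), and between 2 and 4 Mb 50 of 308 (16.2%). In the opposite direction the counts were 16 of 21, 56 of 265 and 56 of 285.

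Over the whole ends, the share of Chr11 H3K27me3 peaks with a partner was 30.4% in SDG711 RNAi IM, 27.1% in jmj703 IM, 33.3% in WT IM and 25.3% in WT SAM. Between 2 and 4 Mb it was 8%, 18.4%, 18.4% and 17.0% in that order. The 95% Wilson intervals, for counting error alone, ran from 19.1 to 44.8% in the ends and from 3.16 to 18.8% between 2 and 4 Mb for SDG711 RNAi IM. They overlapped for the other 3 libraries, for example 23.4 to 45.1% in the ends against 11.3 to 28.6% between 2 and 4 Mb for WT IM. From Chr12 to Chr11 they overlapped in SDG711 RNAi IM too, at 20.4% (11.8 to 32.9%) in the ends against 13.7% (6.81 to 25.7%) between 2 and 4 Mb.

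Over the chain, H3K4me3 was listed at both copies in 93 of 112 pairs in SDG711 RNAi IM, 82 in jmj703 IM, 94 in WT IM and 87 in WT SAM. In these candidate pairs, a peak on a single copy was more often on Chr11. The counts, Chr11 first, were 8 against 5 pairs in SDG711 RNAi IM and 13 against 8 in jmj703 IM. They were 9 against 2 in WT IM and 13 against 7 in WT SAM. From 2 to 4 Mb they were 5 against 5, 6 against 17, 0 against 6 and 1 against 11 in that order, so Chr11 did not lead there. In the close runs, both copies had H3K4me3 in 20, 15, 21 and 15 of 24 pairs in the same order of libraries. The pattern over the 4 libraries was the same on both copies in 14 of these 24 pairs and in 59 of the other 88, so the presence of H3K4me3 was no more alike in the close runs. Between 2 and 4 Mb, the chain had H3K4me3 on both chromosomes in 52, 35, 53 and 49 of 64 pairs in that order. Presence was equal in 84.4%, 64.1%, 90.6% and 81.25% of those pairs. In the ends it was equal in 88.4%, 81.25%, 90.2% and 82.1%, so WT IM and WT SAM were nearly the same in both segments.

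H3K27me3 mostly differed within the candidate pairs, and whether these are true partners was not tested. Of the 112 pairs of the chain, 37 had H3K27me3 in at least 1 library on at least 1 copy. The pattern was the same on both copies in 5 of the 37. In the close runs this was so in 2 of 4 such pairs, and outside them in 3 of 33. In 6 pairs 1 copy had H3K27me3 in all 4 libraries and the other in none, and Chr11 was the marked copy in 3 and Chr12 in 3. The Chr11-marked pairs lay on Chr11 from 684379 to 685781, from 905263 to 906890 and from 1270072 to 1271118. The Chr12-marked pairs lay on Chr12 from 491095 to 493482, from 700518 to 701874 and from 1790061 to 1790892. None of the 6 was in a close run, and whether they are true partners was not tested.

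In most candidate pairs listed on both copies, the strength of H3K4me3 was alike. The pairing favoured regions of like length, and the close runs did so more strictly. How far like length brings like tag density was not tested. The log2 ratio of tags per kb of peak, Chr11 over Chr12, had a median of 0.00 in SDG711 RNAi IM, -0.03 in jmj703 IM, -0.05 in WT IM and -0.02 in WT SAM over the pairs listed on both copies. It lay within 0.5 of 0 in 77 of 93 pairs in SDG711 RNAi IM (82.8%), 66 of 82 in jmj703 IM (80.5%), 76 of 94 in WT IM (80.9%) and 81 of 87 in WT SAM (93.1%). Between 2 and 4 Mb this share was 63.5%, 62.9%, 54.7% and 85.7% in the same order. In the close runs it was 95% in SDG711 RNAi IM, 80% in jmj703 IM, 90.5% in WT IM and 100% in WT SAM, over 15 to 21 pairs.

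**Figure D4:**
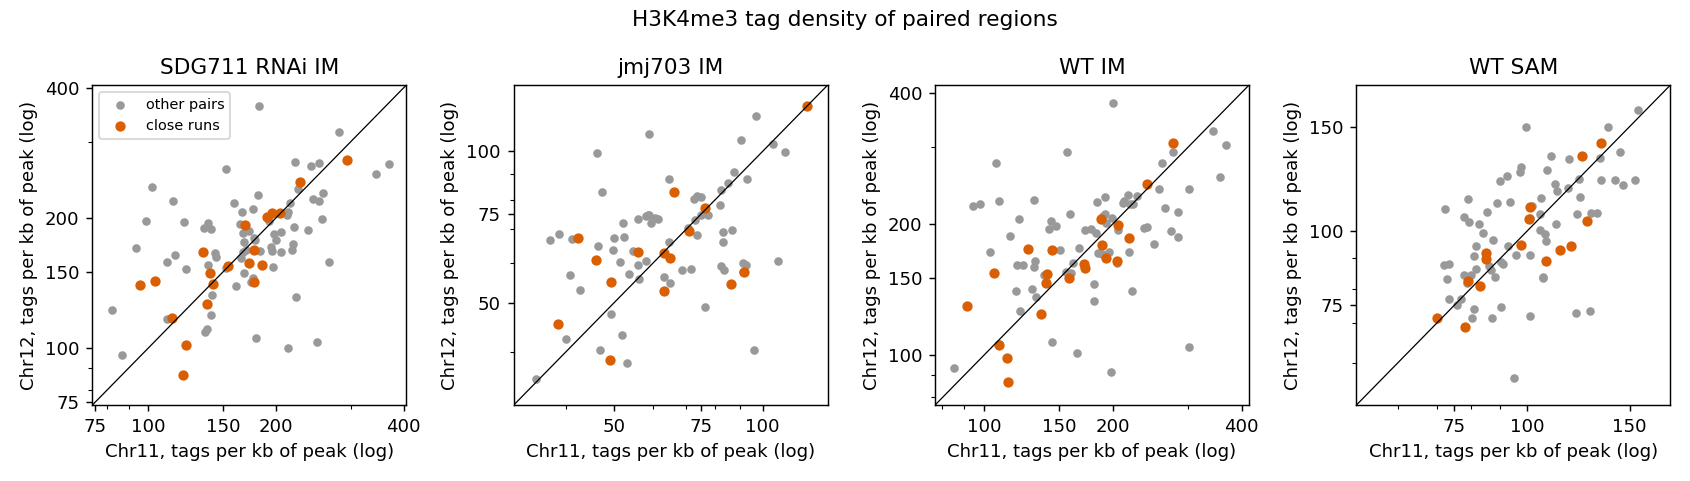
H3K4me3 tags per kb of peak on chromosome 11 (horizontal) and chromosome 12 (vertical), both on log axes, for each pair listed on both copies, with 1 panel per library. Orange points are pairs in close runs and the line marks equality. Most points lie near the line, and those far from it are mainly grey.

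The pair with the most H3K4me3 tags in WT IM was uneven, with 619 tags from 1815154 to 1818440 on Chr11 and 1129 tags from 1770663 to 1774923 on Chr12. The next in the list were even. They included the tip region of 753 and 826 tags given above. Another lay from 539129 to 541864 on Chr11 and from 464549 to 467321 on Chr12, with 709 and 771 tags. The pair from 1284255 to 1287592 on Chr11 and from 1168841 to 1171595 on Chr12 had 779 and 697 tags. The pair from 306161 to 308069 on Chr11 and from 242717 to 245169 on Chr12 had 702 and 685 tags.

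In WT IM, the largest ratio in favour of Chr11 was a log2 value of 1.53, with 753 tags from 194097 to 196666 on Chr11 and 239 tags from 131944 to 134237 on Chr12. The next values were 1.11 and 0.71. In favour of Chr12 the most extreme was -1.37, with 160 tags from 1603811 to 1605515 on Chr11 and 485 tags from 1549600 to 1551550 on Chr12, followed by -1.23 and -1.18. None of these 6 pairs was in a close run.

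Both marks were then compared within each tissue and genotype. The share of H3K27me3 peaks with an overlapping H3K4me3 peak was higher in the ends than in the whole list in all 4 libraries. In jmj703 IM and WT SAM the interval, for counting error only, lay above the whole-list share. Each group had 1 library, so this is not a test of a difference. The overlap was found at 24 of 100 peaks in SDG711 RNAi IM (24.0%, interval 16.7 to 33.2%), against a background of 20% in the whole list. It was found at 56 of 150 in jmj703 IM (37.3%, interval 30.0 to 45.3%), against 24.6%. It was found at 44 of 145 in WT IM (30.3%, interval 23.5 to 38.3%), against 25.8%. It was found at 67 of 151 in WT SAM (44.4%, interval 36.7 to 52.3%), against 32.8%. At p of at most 1e-10 for both marks the shares were lower in the ends and in the whole lists. They were 17.1% in SDG711 RNAi IM against 15.9%, 26.7% in jmj703 IM (interval 18.6 to 36.6%) against 15.8%, 17.9% in WT IM against 17.6%, and 27.1% in WT SAM (interval 19.2 to 36.7%) against 18.3%.

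Other chromosome starts reached the share of the ends in SDG711 RNAi IM, jmj703 IM and WT IM and came near it in WT SAM. The range over the 10 other starts was 13.9 to 40% in jmj703 IM and 26.9 to 42.4% in WT SAM, with medians of 30.7% and 33.8%. The interval of the ends given above included that median in jmj703 IM and lay above it in WT SAM. In SDG711 RNAi IM the range was 5 to 28.6%, with a median of 22.3%. In WT IM it was 11.8 to 44.1%, and the median of 30.8% lay just above the 30.3% of the ends. The copies were close in WT SAM, with 41.3% on Chr11 and 47.4% on Chr12, and in jmj703 IM, with 35.7% and 38.8%. In WT IM the share was 36.2% on Chr11 and 25% on Chr12. The marks were measured in separate libraries, and whether both sat on the same chromatin was not tested.

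When all 8 lists were merged, Chr11 had 242 regions and Chr12 had 260. H3K4me3 in all 4 libraries with no H3K27me3 was the commonest state, at 100 regions on Chr11 and 103 on Chr12. H3K27me3 in all 4 libraries with no H3K4me3 was found at 16 and 19 regions, and both marks in all 8 lists at 5 and 7. Peaks were merged across lists, so the marks need not overlap within a tissue and genotype. In the Chr11 region from 903163, for example, the SDG711 RNAi IM H3K27me3 peak ended at 905370 and the H3K4me3 peak began at 905492.

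The 5 regions of Chr11 in all 8 lists lay from 683749 to 685889, 903163 to 906890, 1233322 to 1236055, 1639495 to 1640604 and 1929480 to 1933629. The 7 of Chr12 lay from 404726 to 408074, 774460 to 777890, 891459 to 893236, 969609 to 972586, 1138343 to 1141314, 1846865 to 1855403 and 1925458 to 1928262. The Chr11 region from 1233322 and the Chr12 region from 1138343 had like values, although the chain did not pair them. H3K4me3 held 428, 201, 415 and 127 tags at the Chr11 site in SDG711 RNAi IM, jmj703 IM, WT IM and WT SAM, and 364, 181, 344 and 102 tags at the Chr12 site. H3K27me3 held 287, 439, 531 and 243 tags at the Chr11 site and 389, 543, 601 and 260 tags at the Chr12 site. In both, the marks covered nearly the same stretch.

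A further region of each copy held a pair of the chain. Chr11 from 1929480 to 1933629 had an H3K27me3 peak of 3651 bp with 380 tags in SDG711 RNAi IM, 3594 bp with 448 tags in jmj703 IM, 4060 bp with 601 tags in WT IM and 1717 bp with 182 tags in WT SAM. On Chr12 the region from 1846865 to 1855403 held 318 tags in SDG711 RNAi IM, 734 in jmj703 IM, 1068 in WT IM and 202 in WT SAM. The chain paired the H3K4me3 regions inside both, from 1931070 to 1932590 on Chr11 and from 1851066 to 1852578 on Chr12. On Chr12 the SDG711 RNAi IM H3K27me3 peak, from 1846952 to 1849983, lay beside that H3K4me3 region and did not overlap it, unlike on Chr11.

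The longest H3K27me3 peaks of the ends were broad and of low fold. On Chr11, WT IM had a peak of 8850 bp from 1265921 to 1274770 with 2662 tags at a fold of 2.11. The same site in jmj703 IM had 8459 bp and 1699 tags. A further peak of jmj703 IM, from 1237683 to 1246182, had 8500 bp and 1721 tags. On Chr12 the longest were WT SAM from 1571844 to 1580021, with 8178 bp and 1445 tags, WT IM from 1846865 to 1853893, with 7029 bp and 1068 tags, and the tip domain of WT SAM with 5688 bp.

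List membership was then compared between tissues and genotypes. A peak counts as missing where no peak of the same mark in the other list overlapped it by 1 bp or more. The comparison of WT IM with WT SAM asks how the marks differ once the growing point has turned to flowering. Of the 145 WT IM H3K27me3 peaks of the ends, 52 had no WT SAM peak (35.9%, interval 28.5 to 43.9%), against a background of 31.5% over the whole list. Of the 151 in WT SAM, 56 were missing from the WT IM list (37.1%, interval 29.8 to 45.02%), against 37.1%. Both copies contributed, with 24 on Chr11 and 28 on Chr12 of the WT IM peaks and 29 and 27 of the WT SAM peaks.

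The WT IM H3K27me3 peaks with the smallest p and no WT SAM peak were all on Chr12. They lay from 1283117 to 1286207 with 489 tags, from 1590480 to 1594471 with 669 tags, and from 232505 to 234613 with 297 tags. All 3 were also listed in jmj703 IM and SDG711 RNAi IM. The WT SAM peaks with the smallest p and no WT IM peak were all on Chr11, from 713723 to 718035 with 696 tags, from 372126 to 373398 with 156 tags, and the tip domain from 61564. The first and the last were missing from all 3 IM libraries, and the second was also listed in jmj703 IM and carried H3K4me3 in all 4 libraries.

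For H3K4me3, 35 of 336 WT IM peaks were missing from the WT SAM list (10.4%, interval 7.59 to 14.1%), against 11.2% in the whole list, and 38 of 344 in WT SAM were missing from the WT IM list (11.05%, interval 8.16 to 14.8%), against 11.3%. At p of at most 1e-10 these shares were 26.6% and 5.49%, against 21.6% and 5.46% in the whole lists. WT IM had 38.7% of its tags in peaks and WT SAM 24.4%, and the part of this difference in the shares was not tested. The 3 WT IM peaks with the smallest p and no WT SAM peak were on Chr12, from 1565161 to 1566604 with 215 tags, the tip region from 90467 with 166 tags, and from 1594390 to 1595549 with 158 tags. The last overlapped the edge of the H3K27me3 domain from 1590480, which WT SAM also lacked. The WT SAM peaks without a WT IM peak were at 99 tags from 568447 to 569585 on Chr12, 140 tags from 437151 to 438612 on Chr12, and 291 tags from 435072 to 437986 on Chr11. All 3 carried H3K27me3 in WT IM and WT SAM.

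The comparison of SDG711 RNAi IM with WT IM asks which H3K27me3 depends on that methyltransferase. Of the 100 SDG711 RNAi IM H3K27me3 peaks, 9 were missing from the WT IM list (9%, interval 4.81 to 16.2%), against 16.7% in the whole list, and the share was 17.1% at p of at most 1e-10, against 15.9%. Of the 145 WT IM peaks, 54 were missing from the SDG711 RNAi IM list (37.2%, interval 29.8 to 45.3%), against 39.8%. The SDG711 RNAi IM library had 10502005 tags, against 22887617 in WT IM, and the part of depth in this count was not tested. Of the 54, 30 were on Chr11 and 24 on Chr12.

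The WT IM H3K27me3 peaks with the smallest p and no SDG711 RNAi IM peak were all on Chr11. They were the tip domain from 26068 with 376 tags, the long peak from 1967728 to 1973202 with 1165 tags, and the peak from 1317269 to 1319236 with 292 tags. All 3 were also listed in jmj703 IM and WT SAM. The tip domain did have an SDG711 RNAi IM peak on Chr12. Peaks of SDG711 RNAi IM with no WT IM peak included Chr11 from 1913323 to 1915157, with 234 tags at a fold of 5.65 and no other list, and Chr11 from 936232 to 937933, with 120 tags, which was also listed in jmj703 IM. The next was the small peak of the Chr12 tip from 77272.

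For H3K4me3, 15 of 342 SDG711 RNAi IM peaks were missing from the WT IM list (4.39%, interval 2.68 to 7.11%), against 6.26%, and 8 of 336 WT IM peaks were missing from the SDG711 RNAi IM list (2.38%, interval 1.21 to 4.63%), against 3.11%. The SDG711 RNAi IM peaks with the smallest p and no WT IM peak lay on Chr12 from 1062399 to 1063869 with 160 tags, on Chr12 from 1985906 to 1987762 with 177 tags and on Chr11 from 374978 to 376125 with 127 tags. The WT IM peaks missing from SDG711 RNAi IM lay on Chr12 from 1765929 to 1767613 with 154 tags, on Chr11 from 741436 to 743163 with 209 tags and on Chr12 from 324321 to 325798 with 315 tags. All 3 of these were also in WT SAM.

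The comparison of jmj703 IM with WT IM asks where H3K4me3 appears without this demethylase. Of the 330 jmj703 IM H3K4me3 peaks, 22 were missing from the WT IM list (6.67%, interval 4.44 to 9.89%), against 4.5% in the whole list, and the share was 4.18% at p of at most 1e-10. Of the 336 WT IM peaks, 36 had no jmj703 IM peak (10.7%, interval 7.84 to 14.5%), against 13.2%, and the share was 17.7% at p of at most 1e-10. The whole lists gave 2.98% and 21.4% at that threshold. The jmj703 IM library was the shallowest, at 4869161 tags, against 18452560 in WT IM.

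The jmj703 IM H3K4me3 peaks with the smallest p and no WT IM peak were in no other list of either mark. They lay on Chr12 from 688727 to 691076 with 140 tags, on Chr12 from 81482 with 48 tags, and on Chr11 from 940266 to 941283 with 42 tags at a fold of 11.9. The second is the tip region whose Chr11 partner was also listed in jmj703 IM only. The WT IM peaks missing from jmj703 IM included Chr11 from 889866 to 892439 with 517 tags, Chr11 from 1374324 to 1375897 with 213 tags and Chr12 from 1180100 to 1181471 with 173 tags. All 3 were listed in SDG711 RNAi IM and WT SAM.

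For H3K27me3, 29 of 150 jmj703 IM peaks were missing from the WT IM list (19.3%, interval 13.8 to 26.4%), against 20.2%, and 25 of 145 WT IM peaks had no jmj703 IM peak (17.2%, interval 12.0 to 24.2%), against 23.2%. The jmj703 IM peaks with the smallest p lay on Chr11 from 1632066 to 1634232 with 215 tags, on Chr11 from 936255 to 939259 with 267 tags and on Chr12 from 1621544 to 1625050 with 327 tags. The WT IM peaks missing from jmj703 IM lay on Chr11, from 1121642 to 1124143 with 345 tags, from 1616389 to 1617579 with 175 tags and from 248785 to 252201 with 479 tags. The first of these carried H3K4me3 in all 4 libraries.

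**Figure D5:**
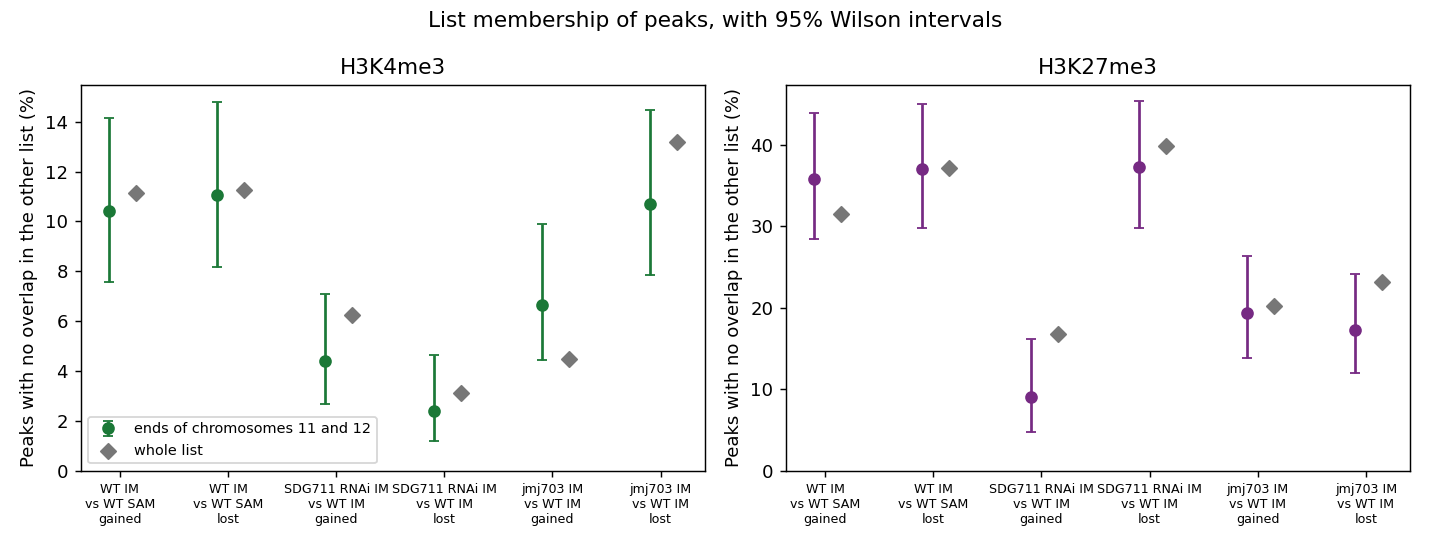
Share of peaks in the ends with no overlapping peak in the other list (coloured points with 95% Wilson intervals, counting error only) and the same share over the whole list (grey diamonds), for H3K4me3 (left) and H3K27me3 (right). Gained means listed in the first state and missing from the second, and lost the opposite. The interval includes the whole-list share in 11 of the 12 comparisons, and the exception is SDG711 RNAi IM H3K27me3 peaks missing from WT IM.

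Whether the copies differed in the same way between lists was counted over the pairs. Over the 3 comparisons, H3K4me3 presence differed 20 times at pairs in the close runs, and in 7 of these it differed the same way on both copies. Outside the close runs this was so in 6 of 46. For H3K27me3 the counts were 2 of 6 and 6 of 43. The comparisons share the WT IM library and the pairs recur, so these counts describe the lists and were not tested. In the close runs, WT IM against WT SAM gave 2 regions of H3K4me3 gained on both copies and 1 lost on both. For jmj703 IM against WT IM there was 1 gained on both copies, at the tip, and 3 lost on both.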

How the data were processed

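ChIP-seq of H3K4me3 and H3K27me3 gave 8 libraries, 1 per tissue, genotype and mark. The 6 RNA samples were not analysed here. Peaks were called with MACS 1.4.0rc2 without a control library at a p cutoff of 1e-05, with an effective genome of 401 Mb, 45 bp tags and a 10 kb background window, per the file headers. Bowtie2 2.1.0 and Trimmomatic 0.32 are named in the submitters' processing notes. The genome build and the treatment of tags with several matches are not given in the sources used here.

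Per the file headers, the deposited files list for each peak its tag count, a score derived from log10 of p and a fold enrichment, a ratio of peak height to local background. Library depth was read from the same headers and ran from 4869161 to 22887617 tags. Tags per 1000000 library tags divide by that depth.

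From these files, peaks that end at or below 2000000 on Chr11 or Chr12 were taken. Overlap means 1 bp or more. H3K4me3 peaks of the 4 libraries were merged and paired by order and spacing, with a tolerance of 2 kb, a jump cost of 2, a skip cost of 0.1, a spacing weight of 0.5 and offsets of up to 150 kb. Close runs needed a log2 length difference of at most 0.5 and were chosen after seeing the data. The pairing and overlap steps were checked on simulated data. With 1 library per group no test was made, and 95% Wilson intervals cover counting error only.

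Named regions were, per comparison, mark and direction, the 3 members with the smallest deposited p that the other list lacked. They were also the 3 longest H3K27me3 peaks per copy, the 5 pairs with most WT IM H3K4me3 tags, the 3 highest and 3 lowest ratios, pairs with H3K27me3 in 4 libraries on 1 copy and none on the other, and regions in all 8 lists. Tip domains and close-run regions were named after their values were seen. The members and these rules were chosen with earlier results of these data known. The planned sequence identity of the copies was not computed, since no genome of the files' build was used here. Alternatives were a p of at most 1e-10, other tolerances, windows of 400 kb, the first 1 Mb and fold in place of tag density. A further alternative was an overlap of at least 0.5 of the length of the shorter peak. Python 3.11.15, numpy 2.4.6, pandas 2.3.3, scipy 1.17.1 and matplotlib 3.10.9 were used.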

Additional observations from a re-analysis of the deposited data

How the results depend on the processing

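Of 106 values under alternatives, 84 stayed inside the interval of the reported value or, for counts of peaks and pairs, which have none, within 1.5 times it, and 22 moved further. Some values near equality changed side. The H3K27me3 density ratio of WT IM was 0.914 over the first 1 Mb, against 1.07 over the first 2 Mb. Most of the moves came with a p of at most 1e-10. Member H3K27me3 peaks then numbered 90 in jmj703 IM, 95 in WT IM and 96 in WT SAM, and the density ratio of SDG711 RNAi IM H3K27me3 was 1.19, against 0.926 as reported. The share of SDG711 RNAi IM H3K27me3 peaks missing from WT IM was 17.1%. For H3K4me3, 26.6% of WT IM peaks were missing from WT SAM and 5.49% of WT SAM peaks from WT IM, while 4.18% of jmj703 IM peaks were missing from WT IM and 17.7% of WT IM peaks from jmj703 IM. Of WT IM H3K27me3 peaks, 25.3% were missing from jmj703 IM. H3K27me3 peaks with H3K4me3 made up 26.7% in jmj703 IM, 17.9% in WT IM and 27.1% in WT SAM. Equal presence on the copies was 70.4% for WT SAM H3K4me3 and 90.8% for jmj703 IM H3K27me3.

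With the close runs only, a choice made after seeing the data, 24 pairs were left. Equal presence of H3K27me3 was then 100% in SDG711 RNAi IM, 95.8% in jmj703 IM, 95.8% in WT IM and 100% in WT SAM, and that of WT IM H3K4me3 was 95.8%. Most of these pairs carried no H3K27me3 on either copy. With fold enrichment in place of tag density, the median log2 ratio of Chr11 over Chr12 was 0.03 in SDG711 RNAi IM, 0.03 in WT IM and 0.059 in WT SAM, all below 0 with tag density. In the close runs the median with tag density was 0.05 in WT IM and 0.00055 in jmj703 IM. No copy is therefore called stronger. The cause of these moves was not tested.

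No paired analysis was possible because each ChIP group had 1 library and the replicate numbers belong to RNA samples, which were not analysed here. For the same reason no library was left out. At 4869161 tags, the jmj703 IM H3K4me3 library was the shallowest, and how far depth sets the peaks missing from its list was not tested. Tags from identical stretches of the copies limit every comparison between them.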
